A study of Mus musculus with 44 samples.

Results

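The 37 genes of the mouse mitochondrial genome, 13 mRNAs, 2 rRNAs and 22 tRNAs, were followed through 44 RNA-seq libraries of dorsal cortex and hippocampus. They were chosen as all genes that GENCODE M21 places on the mitochondrial genome, and all 37 were among the 50714 genes listed in both sets of count files. All mice were labelled CX3CR1-CreERT2 (+/-) x RPL10a-GFP flox (+/-), whereas the series design text writes fl/fl for the RPL10a-GFP allele. In these mice tamoxifen lets a Cre recombinase driven by Cx3cr1, a gene of microglia, switch on a GFP-tagged ribosomal protein of the cytosolic large subunit. Cx3cr1 also marks other macrophages, so the tag is not limited to microglia of the tissue proper. Tamoxifen at 100 mg/kg, or vehicle for control mice, was given on postnatal days 15, 17 and 19, and tissue was taken on days 28 to 29; the design text calls the control mice untreated. Control mice thus carried both alleles too. Input was RNA of the homogenate, and MG_TRAP was the RNA purified from it with tagged ribosomes (translating ribosome affinity purification). SN_input was RNA of the synaptosome fraction, and PeMP_TRAP was the purification from that fraction, titled SN_TRAP in some libraries. Each fraction had 3 control replicates (A to C), 3 tamoxifen replicates of a first set of libraries (D to F) and 5 of a second set (G to K). The sets differ in title style and file naming, and no control library belongs to the second. Whether a replicate letter stands for 1 animal or a pool is not given in the sources used here, so the spread between replicates may be technical in part.

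Mitochondrial DNA is transcribed from both strands into long precursors, which are cut at tRNAs that lie between the mRNAs and rRNAs. The mRNAs encode core subunits of the respiratory chain and of ATP synthase, and they are translated inside the organelle by mitochondrial ribosomes built on mt-Rnr1 and mt-Rnr2, the 12S and 16S rRNAs. The tagged protein belongs to cytosolic ribosomes, which do not translate these mRNAs. Synaptic endings are rich in mitochondria, and synaptosome preparations carry them along.

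Of the 37 members, 10 had reads in all 44 libraries, namely both rRNAs, the 7 mRNAs mt-Nd1, mt-Nd2, mt-Co1, mt-Nd4, mt-Nd5, mt-Nd6 and mt-Cytb, and the proline tRNA mt-Tp. Another 9 stood at a count of 0 everywhere. These were mt-Atp8, a subunit of ATP synthase, mt-Nd4l, a subunit of complex I, and the tRNAs mt-Tw, mt-Ty, mt-Ts1, mt-Td, mt-Tk, mt-Tg and mt-Th. mt-Co2 and mt-Co3, subunits of complex IV, and mt-Atp6, of ATP synthase, never exceeded 22, 9 and 176 reads. mt-Rnr2 reached 3891845 reads in a library and mt-Cytb 2452393.

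Of 19 members that never exceeded 176 reads, 10 lay wholly in a stretch with nuclear copies and 9 outside it. On chromosome 1 (GRCm38), chr1:24611535-24616197, minus strand, 7 annotated pseudogenes (Gm29216, Gm28661, Gm10925, Gm28437, Gm28438, Gm10222 and Gm28439) copy mt-Co1 in part, mt-Co2, mt-Atp6, mt-Co3, mt-Nd3, mt-Nd4l and mt-Nd4 in part, in their order and, to within 1 base, at their spacing. The copied stretch is chrM:6381-11042. It holds 11 members wholly, of which 6 stood at 0 in all libraries, and 2 in part. Of the 50-base windows of mt-Co2, 100% were found unchanged in a nuclear transcript of the annotation, and 99.5% of those of mt-Atp6, 99.9% of mt-Co3, 98.8% of mt-Nd4l and 98% of mt-Nd3. The share was 62.2% for mt-Nd4, 51.1% for mt-Co1, 8.19% for mt-Nd2, 7.61% for mt-Nd5 and 1.04% for mt-Rnr2, and no window of mt-Rnr1, mt-Nd1, mt-Nd6 or mt-Cytb was found. Nor was any of mt-Atp8, which lies in the stretch and stood at 0, or of any tRNA, the 5 tRNAs of the stretch (mt-Ts1, mt-Td, mt-Tk, mt-Tg and mt-Tr) included; sequence between annotated transcripts, also on chromosome 1, was not searched. mt-Tw, mt-Ty and mt-Th stood at 0 outside the stretch. The copies themselves had few reads: median counts over the 44 libraries were 7.5 for Gm29216, 6 for Gm28661 and 2 for Gm28438, with highest counts of 985, 672 and 1803. Reads with more than 1 alignment were set aside by the counter, and made up 13.2% to 58.2% of a library's reads. The part that shared sequence plays in the low counts was not tested, and levels of the 13 members wholly or partly in the stretch, mt-Co1 and mt-Nd4 included, are uncertain.

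mt-Nd3 shows how close the copies are. It differs from Gm28438 over 345 aligned bases by a single substitution, T3C, counted from the first base of the gene, mt-Nd3 first. The capital marks that base in the first 60 bases of mt-Nd3 (chrM:9459-9518, plus strand) and of its copy (chr1:24613060-24613119, minus strand), both from GENCODE M21 transcripts (GRCm38).
mt-Nd3: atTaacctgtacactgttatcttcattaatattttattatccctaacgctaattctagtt
Gm28438: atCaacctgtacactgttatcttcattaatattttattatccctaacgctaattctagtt
The 3 tRNAs with the highest counts in any library, for proline, cysteine and glutamine, are all encoded on the light strand and are given because they carry the tRNA results below, as GENCODE M21 has them.
mt-Tp: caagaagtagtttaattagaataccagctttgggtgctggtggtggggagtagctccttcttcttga
mt-Tc: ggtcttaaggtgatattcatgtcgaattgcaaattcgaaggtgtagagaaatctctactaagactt
mt-Tq: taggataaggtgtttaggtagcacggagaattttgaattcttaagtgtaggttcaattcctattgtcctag
They lie at chrM:15356-15422, chrM:5192-5257 and chrM:3772-3842, minus strand.

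**Figure D1:**
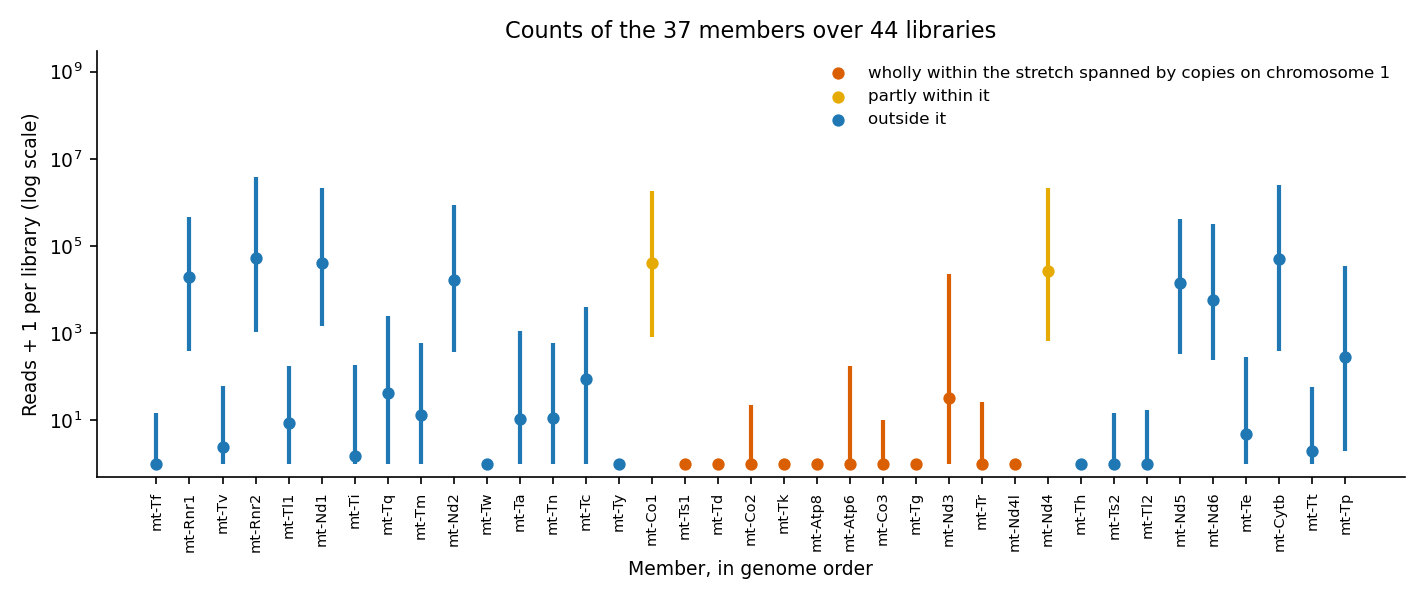
Reads per member (reads + 1, log scale) in genome order. Points are medians and lines run from the lowest to the highest of the 44 libraries; orange members lie wholly and yellow ones partly in the stretch spanned by copies on chromosome 1, where 6 of the 11 orange members have no reads.

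Mitochondrial RNA was scarce in MG_TRAP and abundant in both synaptosome fractions. The members' share of gene-assigned reads in Input was 1.19%, 12.6% and 11.5% in tamoxifen replicates D to F and 1.7% to 2.9% (median 2.5%) in G to K. In MG_TRAP it was 0.0712%, 0.992% and 0.73% in D to F and 0.19% to 1.66% (median 1.11%) in G to K. SN_input held 15.3%, 61.2% and 65.9% in D to F and 17.9% to 20.2% (median 18.6%) in G to K. PeMP_TRAP held 1.06%, 23.8% and 5.2% in D to F and 9.74% to 31.2% (median 23.4%) in G to K. Input and MG_TRAP overlapped over all replicates, whereas SN_input lay above Input without overlap. The widest 95% Wilson interval of such a share spanned 0.171 percentage points, for counting error only; the spread between replicates was far wider.

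Averaged on the log2 scale, the share was 0.185 times as high in MG_TRAP as in Input (log2 difference -2.43, lower in all 8 letters, adjusted p = 0.00159), with a log2 difference of -3.90 in the first set and -1.55 in the second. It was 7.74 times as high in SN_input as in Input (log2 difference 2.95, higher in 8 of 8 letters, adjusted p = 0.00159) and 19.6 times as high in PeMP_TRAP as in MG_TRAP (log2 difference 4.29, higher in 8 of 8 letters, adjusted p = 0.00159). These are two-sided exact permutation tests within sets, adjusted over 12 comparisons of shares, and an unadjusted p of 0.0004 was the smallest they could give. Against its own input, PeMP_TRAP did not differ past the threshold (log2 difference -1.1, higher in 3 of 8 letters, adjusted p = 0.251 by the exact permutation test). Within sets that difference was -2.96 in the first and 0.02 in the second. As a share of all reads, aligned to a gene or not, the members stood 10 times as high in PeMP_TRAP as in MG_TRAP (log2 difference 3.33), and PeMP_TRAP minus SN_input was -1.85 (exact permutation adjusted p = 0.0643). PeMP_TRAP libraries of the second set detected 5425 to 7436 genes, against 12609 to 16754 in MG_TRAP and 15096 to 17052 in SN_input. Reads with more than 1 alignment were 38.6% to 51.5% of them, against 13.2% to 15.3% and 38.5% to 40.1%. In the first set tamoxifen PeMP_TRAP detected 11736 to 13141 genes with 32.3% to 58.2% such reads, and MG_TRAP 14098 to 16536 genes with 30.6% to 47.3%. The part of these differences between libraries in the members' values, here and gene by gene, was not tested. In bulk libraries fewer mitochondria, fewer transcripts in each and more other RNA cannot be told apart in a share, just as fewer cells of a type and less RNA per cell cannot.

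**Figure D2:**
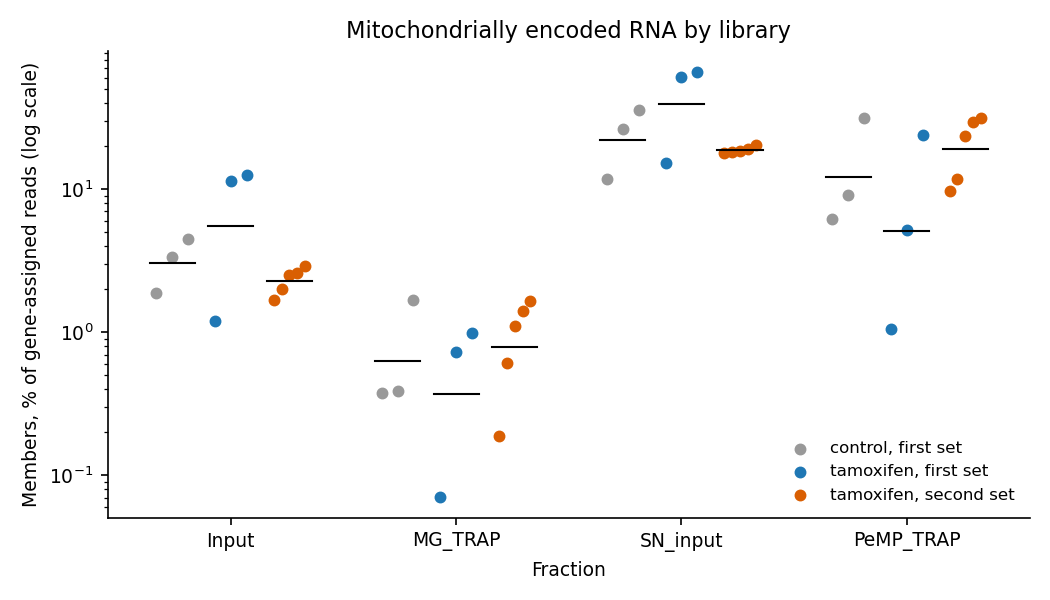
Share of gene-assigned reads from the 37 members in each library (percent, log scale) by fraction. Each point is 1 library and bars are geometric means; SN_input and PeMP_TRAP reach 65.9% and 31.5%, and MG_TRAP stays at or below 1.68%.

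In control mice too the share was lower in MG_TRAP and higher in SN_input than in Input, and higher in PeMP_TRAP than in MG_TRAP. PeMP_TRAP lay below SN_input in all 3 control letters, but above it in 3 of 5 tamoxifen letters of the second set. It lay above Input in each control letter and below Input in tamoxifen letters D and F. The control shares were 1.89%, 4.49% and 3.35% in Input and 0.39%, 1.68% and 0.379% in MG_TRAP. They were 26.4%, 35.6% and 11.7% in SN_input and 6.15%, 31.5% and 9.17% in PeMP_TRAP. MG_TRAP lay below Input and PeMP_TRAP above MG_TRAP without overlap. The log2 differences were -2.28 for MG_TRAP against Input, 2.87 for SN_input against Input and 4.27 for PeMP_TRAP against MG_TRAP, each at the smallest exact permutation p that 3 against 3 allow, 0.1 (adjusted p = 0.2). PeMP_TRAP minus SN_input was -0.88 in control mice (exact permutation test, adjusted p = 0.45). It turned to 0.63 with mRNAs only and to 0.35 without mt-Rnr2, and was -0.27 without letter A. With all reads as the base it was -1.62, and PeMP_TRAP minus MG_TRAP was 3.33. In the share of all members, tamoxifen and control libraries of the first set overlapped in all 4 fractions. With mRNAs only, MG_TRAP did not overlap, at 0.034% to 0.296% with tamoxifen and 0.301% to 0.67% in control mice. That log2 difference was -1.62 (exact permutation adjusted p = 0.171). Over all members the log2 difference of tamoxifen minus control was -0.76 in MG_TRAP and -1.25 in PeMP_TRAP (-1.85 as a share of all reads). It was 0.87 in Input and 0.83 in SN_input, and adjusted exact permutation p-values lay from 0.48 to 0.8. Without the libraries of letter D the MG_TRAP difference was 0.44, that in PeMP_TRAP -0.12, in Input 1.98 and in SN_input 1.51. Without letter E they were -1.46, -2.36, 0.28 and 0.51.

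The summed level of microglial markers separated tamoxifen from control libraries in both purifications. The summed level of 12 microglial genes was 35020 to 52888 CPM (counts scaled to a common total of assigned reads) in MG_TRAP of tamoxifen mice of the first set, and 3681 to 9303 CPM in control MG_TRAP. In PeMP_TRAP it was 31605 to 73671 CPM against 832 to 10499 CPM. Control Input stood at 425 to 542 CPM and control SN_input at 1800 to 4789 CPM, so control MG_TRAP lay above its input too. Gene by gene, edgeR called 0 of the 12 genes for tamoxifen against control in MG_TRAP, where 0% of all genes were called. In PeMP_TRAP it called 8, all higher, where 11.1% were. Summed neuronal markers (12 genes) were 866 to 4390 CPM in tamoxifen PeMP_TRAP and 4944 to 14708 CPM in control PeMP_TRAP. Over the second set, microglial markers summed to 21440 to 31493 CPM in MG_TRAP and 16693 to 29461 CPM in PeMP_TRAP. Neuronal markers summed to 3833 to 9564 and 1961 to 4460 CPM there. Oligodendrocyte markers (12 genes) summed to 3195 to 16413 CPM in MG_TRAP and 3444 to 7499 CPM in PeMP_TRAP. They were at 7279 to 9111 CPM in Input and 23390 to 63241 CPM in SN_input. Astrocyte markers (12 genes) summed to 1412 to 3424 CPM in MG_TRAP and 1415 to 4333 CPM in PeMP_TRAP. They were at 4818 to 6684 CPM in Input and 13803 to 17403 CPM in SN_input. No microglial marker was at 0 throughout any group; Gad1, of inhibitory neurons, and Ermn, of oligodendrocytes, were at 0 in PeMP_TRAP of the second set, as were 8 of 12 endothelial markers. The part of co-purified RNA of other cells in the members' levels was not tested. Assigned reads per library ran from 746616 to 35584637, and a count of 0 still allows 3 reads, or 0.0843 to 4.02 CPM.

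Gene by gene, the fall in MG_TRAP reached mRNAs and 16S rRNA. Of 21 members tested in the 32 tamoxifen libraries, 8 were lower in MG_TRAP than in Input (edgeR quasi-likelihood test, adjusted p under 0.05) and none was higher, where 2.15% of all genes tested were lower. mt-Cytb, the core of complex III, had 29.1 to 2989 CPM in MG_TRAP (median 850.8) and 2697 to 7634 CPM in Input (median 4844). The ranges overlapped, and mt-Cytb was lower in all 8 letters. Its log2 fold change was -2.11 ± 0.43 (SE, edgeR adjusted p = 0.000913). mt-Rnr2 fell by 3.26 ± 0.63 on the log2 scale and mt-Nd3 by 4.14 ± 0.96, and mt-Nd2, mt-Nd4, mt-Nd5 and mt-Nd6, all of complex I, by 1.52 to 1.97. mt-Nd3 had no read in MG_TRAP of letters D, E, F and K. Among the 21 members mt-Nd5 alone had no overlap, with 25.2 to 669.9 CPM in MG_TRAP and 780.2 to 1818 CPM in Input; of all genes tested 3.97% lay lower in MG_TRAP without overlap. mt-Tv, the valine tRNA, had no read in 8 MG_TRAP libraries and 43 in all Input libraries, and was at least 16.5-fold lower against 3 counts over the group. mt-Co1 (-1.12 ± 0.40), mt-Nd1 (-1.14 ± 0.43) and mt-Rnr1 (-1.84 ± 0.63) did not pass, with edgeR adjusted p of 0.0942, 0.118 and 0.0745. limma voom called 2 members, where 11.4% of all genes were called, and the first set alone 0, where 2.54% were.

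In SN_input 15 of the 21 members were higher than in Input and none lower, where 2.08% of all genes tested were higher. All 8 mRNAs tested and both rRNAs rose. mt-Rnr2 had 1240 to 97324 CPM in Input (median 2123) and 24054 to 515048 CPM in SN_input (median 42178), higher in 8 of 8 letters, and its log2 fold change was 4.63 ± 0.67 (edgeR adjusted p = 7.85e-06). mt-Nd1, a complex I subunit, did not overlap between the fractions, at 1743 to 4275 against 5241 to 30727 CPM, as 0.344% of all genes tested did in that direction. The mRNAs rose by 3.13 (mt-Nd5) to 4.47 (mt-Nd3) on the log2 scale. Of the tRNAs, mt-Tq (5.35 ± 1.06), mt-Tc (4.56 ± 1.02), mt-Ta (4.40 ± 1.23), mt-Tn (3.75 ± 1.06) and mt-Tp (3.14 ± 0.77) passed. limma voom called 7 members, where 1.33% of all genes were called, and the first set alone 0, where 0.0463% were. With total counts in place of TMM scaling 11 members were higher, where 0.592% of all genes were higher and 1.46% lower, and with RLE size factors 12, where 0.853% were higher and 0.694% lower. With TMM 0.465% were lower.

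PeMP_TRAP exceeded MG_TRAP for 20 of the 21 members, where 3.17% of all genes tested were higher. With total counts 1.24% of all genes were higher and with RLE size factors 1.83%. The exception, the isoleucine tRNA mt-Ti, had 2.57 ± 1.13 (edgeR adjusted p = 0.0947). Not all of the 20 had many reads: mt-Tv had none in MG_TRAP and 0 to 29 in PeMP_TRAP. mt-Nd4, a complex I subunit, had 49.5 to 1449 CPM in MG_TRAP (median 608.2) and 1071 to 62479 CPM in PeMP_TRAP (median 27987), higher in 8 of 8 letters. Its log2 fold change was 6.20 ± 0.56 (edgeR adjusted p = 4.01e-10). The other mRNAs ranged from 4.09 (mt-Co1) to 7.50 (mt-Nd3), and mt-Rnr1 and mt-Rnr2 had 5.72 ± 0.74 and 5.21 ± 0.69. mt-Nd3, which lies wholly in the copied stretch, had no read in MG_TRAP of letters D, E, F and K, so its fold rests in part on the floor. mt-Tc had 0 to 31 reads in MG_TRAP, at most 3 in 4 of 8 libraries, and 24 to 3932 in PeMP_TRAP. mt-Tn had 0 to 3 reads in MG_TRAP, 7 in all, and 10 to 523 in PeMP_TRAP, so a fold is set by levels at or under the 3 reads that a count of 0 allows. limma voom called 10 members, where 44.2% of all genes were called, and the first set alone 0, where 0% were. In control mice 4 of 20 members tested, mt-Nd1, mt-Co1, mt-Nd4 and mt-Cytb, rose by 4.46 to 5.57 between the same fractions, where 0.0271% of all genes tested were higher. That number was 0 without letter A, B or C and 15 without D, 8 without E.

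Against SN_input, PeMP_TRAP was lower in mt-Rnr2, and no mRNA passed the test. mt-Rnr2 had 1576 to 71446 CPM in PeMP_TRAP (median 10149), below SN_input in all 8 letters although the ranges overlapped. Its log2 fold change was -2.68 ± 0.61 (edgeR adjusted p = 0.0011). mt-Tq fell by 2.59 ± 0.94, lower in all 8 letters. They were the 2 members called, where 26.1% of all genes tested were lower, so the share called is below that of all genes. The 8 mRNAs lay between -1.10 ± 0.84 (mt-Nd3) and 1.06 ± 0.45 (mt-Nd4), mt-Rnr1 at -0.70 ± 0.63, and none of these passed; the median of all genes was -0.75. Without replicate D the number called was 6, and without letters H, I, J or K it was 1 each time.

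**Figure D3:**
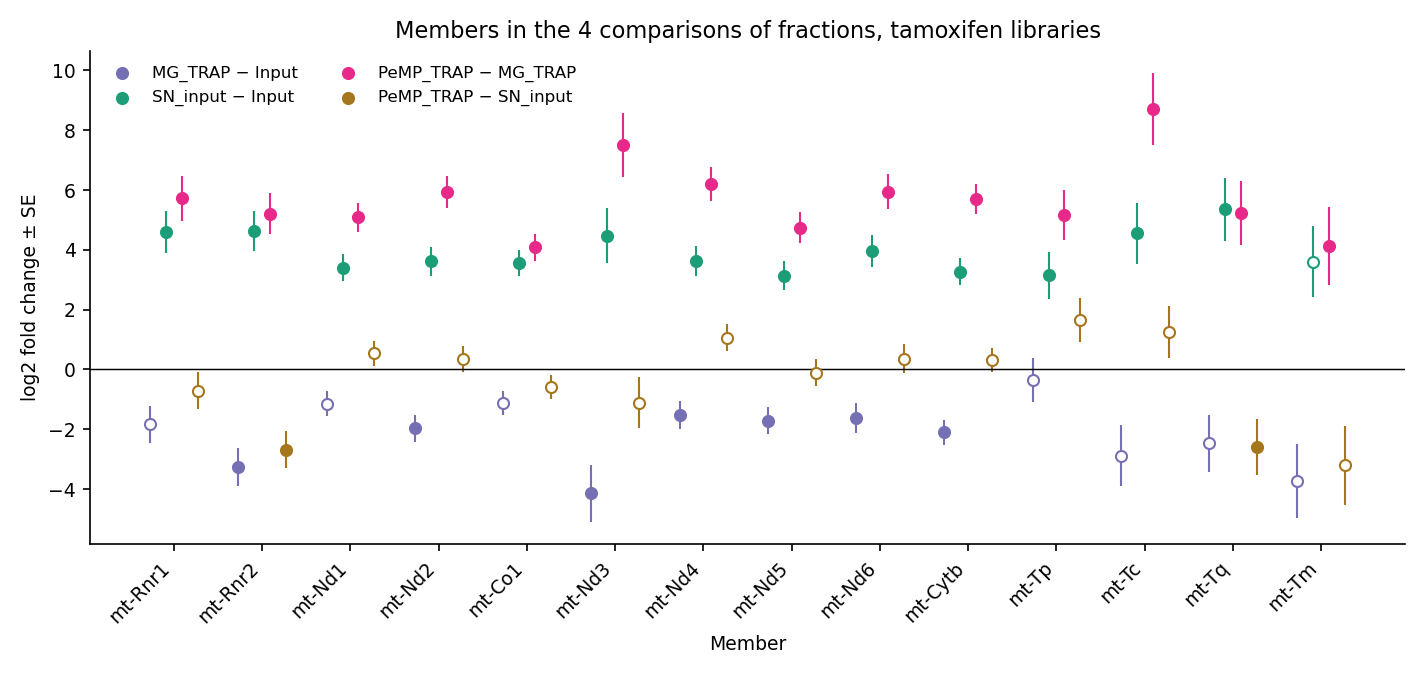
Log2 fold change (± SE, edgeR) of 14 members in 4 comparisons of fractions over tamoxifen libraries. Filled points have an adjusted p under 0.05 and open points do not; PeMP_TRAP minus MG_TRAP and SN_input minus Input lie above 0 for every member shown.

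The enrichment of PeMP_TRAP over its input was compared with that of MG_TRAP over its own. The difference of log2 fold changes was above 0 past the threshold for 5 of 21 members and below 0 for none, where 0.388% of all genes tested were higher. It was 2.42 ± 0.59 for mt-Cytb, 2.58 ± 0.64 for mt-Nd4 and 2.33 ± 0.62 for mt-Nd2 (edgeR adjusted p = 0.00677, 0.00767 and 0.0116). It was 4.82 ± 1.44 for the asparagine tRNA mt-Tn and 4.14 ± 1.30 for mt-Tc. For mt-Rnr2 it was 0.58 ± 0.81 and did not pass. The number was 9 without letter D and 3 without E or G. With limma voom it was 0, where 12.1% of all genes were called, and with the first set alone 0, where 0% were. mt-Tn had 0 to 3 reads in MG_TRAP.

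In control mice the edgeR fit by group called no member in the other comparisons of fractions. A fit with a replicate block did call members for MG_TRAP minus Input and SN_input minus Input, as given under the dependence on processing. MG_TRAP minus Input called 0 of 20 with edgeR (1 at an unadjusted p under 0.05) and 0 with DESeq2 and limma voom, where 0.0135% of all genes were called. PeMP_TRAP minus SN_input called 0 (1 unadjusted; 0 with both other tools), where 0% of all genes were called. SN_input minus Input called 0 with edgeR although 13 passed unadjusted, and 1 with each other tool, where 0% of all genes were called. Its log2 fold changes were all positive, from 2.42 to 4.93, and mt-Rnr2 was at 3.60 ± 1.18. In CPM 16 of the 20 members lay higher in SN_input than in Input without overlap, where 5.94% of all genes did, and 15 lay higher in PeMP_TRAP than in MG_TRAP, where 1.27% did. MG_TRAP lay below Input for 6, where 6.01% of all genes did. Tamoxifen against control called 0 of 20 members with edgeR in each fraction. That was so where 0% of all genes were called (MG_TRAP, Input and SN_input) and in PeMP_TRAP, where 11.1% were. At an unadjusted p under 0.05 the numbers were 0 in MG_TRAP, 0 in PeMP_TRAP, 0 in Input and 1 in SN_input. DESeq2 called 0 in each and limma voom 0 except for 3 in PeMP_TRAP, and edgeR called 3 there without letter E. In PeMP_TRAP mt-Nd4 differed by -0.35 ± 0.92 and mt-Rnr2 by -0.69 ± 1.07 on the log2 scale. In CPM the members without overlap between tamoxifen and control numbered 3 in MG_TRAP, 1 in PeMP_TRAP, 0 in Input and 1 in SN_input. Those in MG_TRAP were mt-Co1, mt-Nd5 and mt-Cytb, all lower with tamoxifen. In PeMP_TRAP it was mt-Co1, at 904.6 to 6017 CPM with tamoxifen and 6965 to 10458 CPM in control mice. The share of all genes without overlap was not computed for these comparisons. The comparisons within control mice and against them share the same control libraries.

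The authors' deposited table, which holds 8 of the mRNAs and neither rRNA, gave all 8 as higher in SN_input than in Input, by 5.18 to 7.58 on the log2 scale, 7 of them with a false discovery rate under 0.05. The authors' deposited table gave all 8 as lower in tamoxifen MG_TRAP than in Input, by -5.88 to -1.57, with 1 under 0.05, mt-Cytb at -2.94 (false discovery rate 0.0244). For PeMP_TRAP against SN_input the authors' deposited table gave values from -2.11 to 1.01 and none under 0.05.

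The ratio of the 2 rRNAs was lower in both purifications than in their inputs. The ratio of mt-Rnr2 to mt-Rnr1 reads was 5.24 to 9.51 in SN_input of tamoxifen mice and 1.37 to 2.94 in PeMP_TRAP, with no overlap. The mean ratio was 7.31 ± 1.18 against 1.9 ± 0.52 (SD, n = 8 each; log2 difference -1.97, exact permutation test within sets, adjusted p = 0.00714). In MG_TRAP it was 3.17 ± 1.99 and in Input 6.34 ± 1.84 (SD, n = 8 each; log2 difference -1.16, exact permutation adjusted p = 0.00714), and only letter D of MG_TRAP, at 7.46, lay within the range of Input. PeMP_TRAP was below MG_TRAP (log2 difference -0.58, exact permutation adjusted p = 0.0286; -1.04 in the first set and -0.29 in the second), while SN_input and Input did not differ past the threshold (0.24, exact permutation adjusted p = 0.308). In 3 of the 4 fractions the ratio itself differed between the sets without overlap. It was 8.35 in the first and 5.13 in the second set in Input, 5.15 and 1.98 in MG_TRAP, and 2.42 and 1.59 in PeMP_TRAP (exact permutation adjusted p = 0.0357 each), so the means over 8 libraries join 2 levels. In SN_input it was 7.34 and 7.3. Within sets PeMP_TRAP minus SN_input was -1.58 and -2.2 on the log2 scale, and MG_TRAP minus Input -0.75 and -1.4. Control mice gave 2.6 ± 0.54 in PeMP_TRAP, 8.36 ± 2.54 in SN_input, 3.6 ± 0.38 in MG_TRAP and 7.75 ± 0.34 in Input (SD, n = 3 each). Neither purification overlapped its input there, at the smallest p of 0.1 in an exact permutation test. These and the other tests of composition were added after the data were seen and adjusted over 36 comparisons. mt-Rnr2 has a longest run of 7 adenines (30 bases on each side shown, run in capitals, chrM:1458-1524) and mt-Rnr1 of 5 (chrM:675-739), from GENCODE M21, shown because the oligo-dT primer of the cDNA kit can pair with such runs; a part of it in the ratio was not tested.
mt-Rnr2: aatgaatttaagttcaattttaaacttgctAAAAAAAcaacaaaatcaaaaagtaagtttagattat
mt-Rnr1: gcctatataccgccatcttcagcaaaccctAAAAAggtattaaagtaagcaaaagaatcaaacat
Runs of 7 or more adenines also stand in mt-Nd2 (8), mt-Co1, mt-Nd4 and mt-Nd5 (7 each) and in the tRNA mt-Tr (8), which had at most 25 reads.

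The share of rRNA among the members' reads differed between the library sets in every fraction. In tamoxifen libraries of the first set it was 28.1%, 85.9% and 88.5% in Input, 52.1%, 69.8% and 71.3% in MG_TRAP, 82.3%, 90.8% and 93% in SN_input and 47.5%, 45.4% and 50.4% in PeMP_TRAP. In the second set it was 8.23% to 9.81%, 2.77% to 4.18%, 15.3% to 25% and 2.63% to 6.95%. The sets did not overlap in any fraction, at the smallest p an exact permutation test of 3 against 5 allows, 0.0179 (adjusted p = 0.0357 over 20 comparisons of sets). Within sets, rRNA made up less of the members' reads in PeMP_TRAP than in SN_input (log2 difference -1.7, exact permutation adjusted p = 0.00714). It made up more in SN_input than in Input (log2 difference 0.98, exact permutation adjusted p = 0.00952). MG_TRAP minus Input was -0.82 (exact permutation adjusted p = 0.0661) and did not pass, at 0.09 in the first set and -1.37 in the second.

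**Figure D4:**
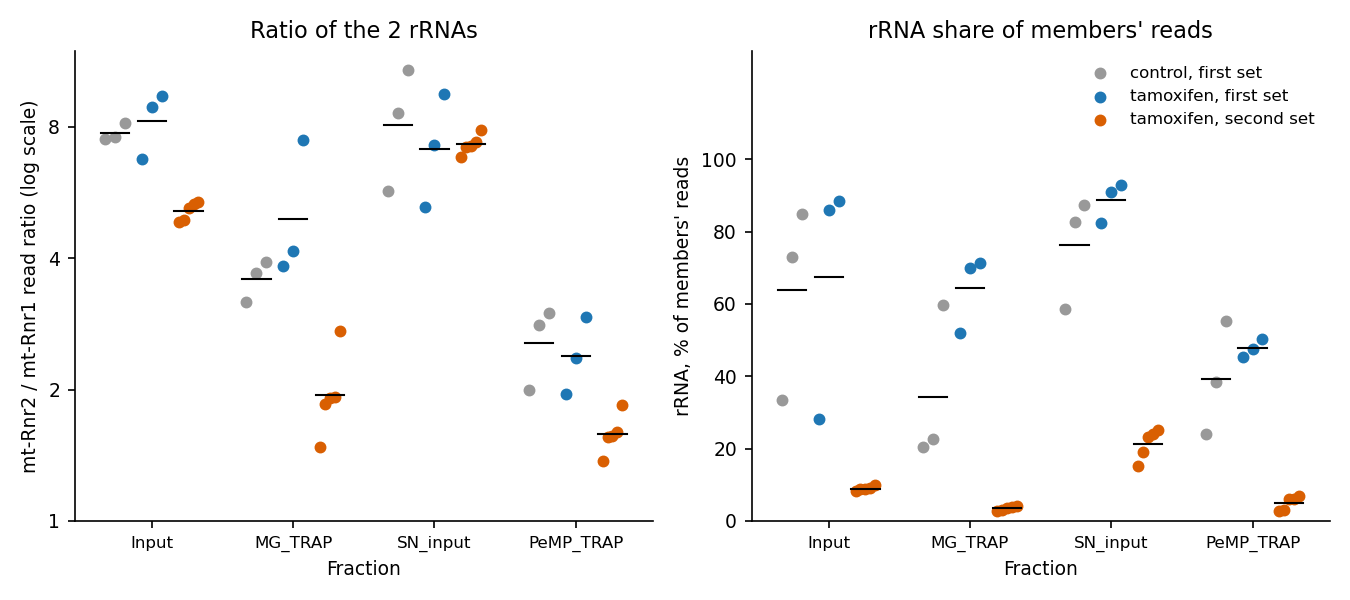
Left, ratio of mt-Rnr2 to mt-Rnr1 reads (log scale) and right, percent of the members' reads that are rRNA, by fraction. Points are libraries and bars are geometric (left) or arithmetic (right) means; the ratio is at least 4.85 in every Input and SN_input library and lies below that in every PeMP_TRAP library.

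Per length, 16S rRNA was the most abundant member in SN_input of the first set, and mRNAs led in the second. mt-Rnr2 stood at 237839 ± 145414 CPM per kb (SD, n = 3) in SN_input of tamoxifen mice of the first set, and mt-Rnr1 at 58056 ± 43515. In the second set mt-Cytb stood at 33836 ± 1267, mt-Nd1 at 28174 ± 2644, mt-Co1 at 26403 ± 1243, mt-Rnr2 at 22357 ± 5048 and mt-Nd4 at 12807 ± 848.5 CPM per kb (SD, n = 5). mt-Nd2 followed at 11422 ± 623.5, mt-Nd6 at 8093 ± 708.2, mt-Rnr1 at 5097 ± 1252 and mt-Nd5 at 3545 ± 234.7 CPM per kb. In that order mt-Nd1, mt-Co1 and mt-Rnr2 did not differ from each other beyond their spread, nor did mt-Nd4 and mt-Nd2. mt-Co1 and mt-Nd4 lie partly in the copied stretch, so their places are uncertain. In PeMP_TRAP of the second set mt-Nd1 (46089 ± 20347) and mt-Cytb (41762 ± 18843) did not differ beyond their spread, and mt-Rnr1 and mt-Rnr2 stood at 4943 ± 3474 and 4529 ± 3035 CPM per kb.

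Among mRNAs, mt-Nd4 took a larger part and mt-Co1, the catalytic subunit of complex IV, a smaller part in PeMP_TRAP than in its input. In the second set mt-Nd4 made up 19.3% to 22.6% of mitochondrial mRNA reads in PeMP_TRAP and 11.4% to 12.6% in SN_input, 8.91% to 12.3% in MG_TRAP and 9.55% to 9.99% in Input. PeMP_TRAP overlapped none of the others. In the first set mt-Nd4 made up 19.3% to 24.2% in PeMP_TRAP and 10.2% to 16.7% in SN_input of tamoxifen mice, and 17.6% to 24.6% against 10.6% to 17% in control mice. mt-Co1 made up 15.7% ± 3.39 in PeMP_TRAP and 27.7% ± 1.51 in SN_input of the second set (SD, n = 5), without overlap, but ranges overlapped in the first set (4.7% to 16.3% against 9.04% to 28.4%). Both genes lie partly in the copied stretch. mt-Cytb and mt-Nd1, which do not, made up 24.2% ± 1.71 and 22.3% ± 0.707 in PeMP_TRAP and 26.3% ± 0.482 and 18.3% ± 1.21 in SN_input. mt-Nd6, the light-strand mRNA, stayed between 1.38% and 4.13% in all fractions of the second set and ranged from 1.72% to 14.3% in the first. These shares are given as a description and were not tested.

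**Figure D5:**
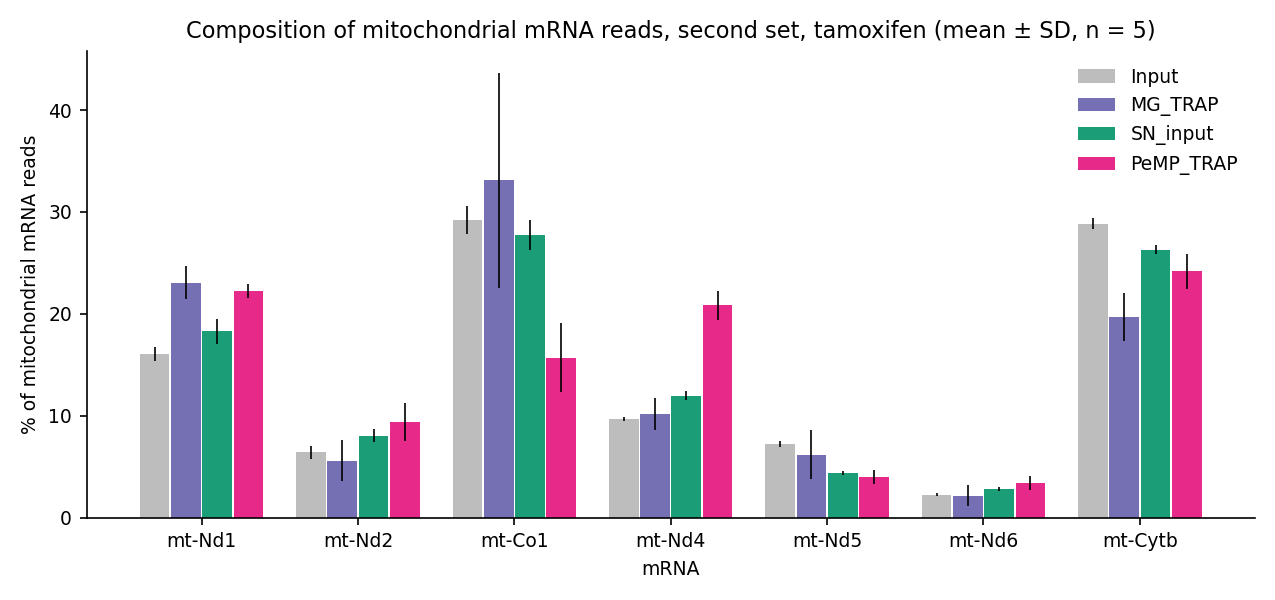
Percent of mitochondrial mRNA reads from each of 7 mRNAs in tamoxifen libraries of the second set, mean and SD of 5 libraries per fraction. The mt-Nd4 bar of PeMP_TRAP (20.8%) is above and its mt-Co1 bar (15.7%) below those of the other fractions.

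tRNA reads were few, but a larger part of the members' reads in the purifications. They made up 0.22% to 0.781% in tamoxifen PeMP_TRAP and 0.026% to 0.246% in SN_input (log2 difference 1.58, exact permutation adjusted p = 0.00714; 2.87 in the first set and 0.81 in the second). They made up 0.148% to 0.387% in MG_TRAP and 0.0523% to 0.184% in Input (log2 difference 1.13, exact permutation adjusted p = 0.00857). Genes of the light strand, 8 of the 22, gave 94.2% to 100% of tRNA reads in the second set and 48.4% to 95.2% in the first. The strand setting of the counting is not given in the sources used here, so reads from a tRNA and from a precursor of the opposite strand cannot be told apart. mt-Tp led: in the second set it had 4877 to 34134 reads in PeMP_TRAP, 1262 to 3914 in SN_input, 126 to 1455 in MG_TRAP and 270 to 606 in Input. Its log2 fold change in PeMP_TRAP against SN_input was 1.66 ± 0.72, higher in 8 of 8 letters, and did not pass (edgeR adjusted p = 0.076). mt-Tq went the other way, with 170 to 846 reads in PeMP_TRAP and 954 to 2542 in SN_input of the second set.

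The second set was compared with the first in tamoxifen mice, fraction by fraction. Members called numbered 7 of 24 in Input, 8 in MG_TRAP, 5 in SN_input and 10 in PeMP_TRAP, where 2.76%, 7.57%, 1.43% and 29.8% of all genes tested were called in either direction. Lower in the second set were 7, 6, 5 and 8 of them, where 2.12%, 6.54%, 0.663% and 27.6% of all genes were lower. In PeMP_TRAP that share is near that of all genes, whose median was -0.89. Higher were 2 in MG_TRAP and 2 in PeMP_TRAP, where 1.03% and 2.25% of all genes were. Both rRNAs were lower in each fraction, with log2 fold changes of mt-Rnr2 of -5.61 ± 0.89 in Input, -4.44 ± 0.85 in MG_TRAP, -4.54 ± 0.85 in SN_input and -2.66 ± 0.81 in PeMP_TRAP. In MG_TRAP and PeMP_TRAP the CPM of both rRNAs overlapped between the sets, and their summed share of assigned reads did not differ past the threshold (log2 differences -3.12 and -1.47, exact permutation adjusted p = 0.128 and 0.317). Summed mRNA took a larger share of assigned reads in SN_input of the second set, 14.2% to 15.3% against 2.71% to 5.52% (3.6-fold, exact permutation adjusted p = 0.0357). There 7 mRNAs (mt-Nd1, mt-Nd2, mt-Co1, mt-Nd3, mt-Nd4, mt-Nd5 and mt-Cytb) and mt-Tp lay higher in CPM without overlap, 8 of 24 members where 25.2% of all genes did, and no mRNA passed the edgeR test. mt-Co1 rose in MG_TRAP (3.37 ± 0.67) and PeMP_TRAP (2.93 ± 0.65). mt-Nd3 had no read in the 3 first-set MG_TRAP libraries and 0 to 156 in the second, at least 20.7-fold higher against 3 counts over the group (7.57-fold without letter D), and rose in PeMP_TRAP from 0 to 14 reads to 3419 to 22451. The tRNAs called were all lower. mt-Tm, the methionine tRNA, had 38 to 558 reads in PeMP_TRAP of the first set and 0 to 1 in the second, and mt-Ti had 0 to 47 and 0 throughout, with 47 of its 48 first-set reads in letter E. In Input 4 members were called without any one of letters E to J. In MG_TRAP 3 were called without F, 4 without E, G, H or J and 5 without I, and in SN_input 8 without D, 3 without E, 1 without F and 2 without any one of G to K.

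Whether fraction differences changed with the set was tested as an interaction. For PeMP_TRAP minus SN_input it called mt-Tm alone (-7.59 ± 2.11, edgeR adjusted p = 0.0122), where 15.1% of all genes tested were called. Without letter F it called 0 members and without D 2. For PeMP_TRAP minus MG_TRAP it called 0 members (0 at an unadjusted p under 0.05, and 0 with DESeq2 and limma voom), where 15.3% of all genes were called. For MG_TRAP minus Input it called 0 (1 unadjusted, 0 with both other tools), where 0% of all genes were called. For SN_input minus Input it called 0 (0 unadjusted, 0 with both other tools), also at 0% of all genes.

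Nuclear genes for mitochondrial proteins followed the members only in part. These lists were chosen with earlier results of these data known. Of 83 nuclear respiratory chain subunits tested, 24 rose and none fell in SN_input against Input, where 2.08% of all genes rose, with a median log2 fold change of 1.35 against -0.02 over all genes, led by Cox6c of complex IV (2.98 ± 0.50) and Ndufb9 of complex I (2.96 ± 0.39). In PeMP_TRAP against MG_TRAP 26 rose, where 3.17% of all genes did, and none fell, where 22% did (median 1.03, all genes -0.57), led by Cox8a (2.75 ± 0.41) and Cox6a1 (2.50 ± 0.45). In MG_TRAP against Input none was called, where 6.82% of all genes were (median -0.25, all genes -0.14). In PeMP_TRAP against SN_input 15 fell, led by Cox6c (-2.33 ± 0.48) and Ndufa4 (-2.11 ± 0.38), and Cox7a2l rose (1.13 ± 0.44; median -0.56, all genes -0.75). Of all genes 26.1% fell and 6.15% rose there, so the share of subunits called lay below that of all genes in both directions.

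Of 77 mitochondrial ribosomal proteins 2 rose in SN_input against Input, Mrpl33 (2.42 ± 0.57) and Mrpl20 (1.73 ± 0.46), a share near the 2.08% of all genes, and none fell. In MG_TRAP against Input Mrpl52 alone was called and rose (1.90 ± 0.52), where 4.67% of all genes rose. In PeMP_TRAP against MG_TRAP 3 rose, Mrpl24 (2.20 ± 0.75) and Mrpl42 (1.39 ± 0.42) among them, and none fell. There 3.17% of all genes rose and 22% fell, and the median was 0.71, against -0.57 over all genes. In PeMP_TRAP against SN_input 3 rose and 2 fell, below the shares of all genes (6.15% and 26.1%), with Mrpl24 at 2.51 ± 0.77 and Mrps6 at -3.91 ± 1.16. Of 45 genes of mitochondrial DNA and RNA machinery none was called in SN_input against Input or in MG_TRAP against Input, where 2.55% and 6.82% of all genes were, 8 fell in PeMP_TRAP against SN_input (median -0.61, all genes -0.75) and 7 in PeMP_TRAP against MG_TRAP, where 26.1% and 22% of all genes fell. Of 19 membrane and matrix proteins 2 fell in PeMP_TRAP against SN_input and none rose, where 26.1% and 6.15% of all genes did. They were Slc25a3 (-1.34 ± 0.41) and Slc25a4 (-1.24 ± 0.46), carriers of phosphate and of adenine nucleotides. In PeMP_TRAP against MG_TRAP none of the 19 fell, where 22% of all genes fell. The chaperonin Hspd1 was among those that rose there (1.58 ± 0.47), where 3.17% of all genes rose. The median of the list was 0.43, against -0.57 over all genes. In tamoxifen against control PeMP_TRAP 4 of 84 respiratory chain subunits and 9 of 77 mitochondrial ribosomal proteins rose and none fell, where 5.56% of all genes rose. Of 44 genes of DNA and RNA machinery 2 rose and 1 fell, among them Tfam (6.97 ± 2.22), which packages mitochondrial DNA, and Trmt10c (-8.05 ± 2.3), a subunit of mitochondrial RNase P; 5.56% of all genes rose and 5.56% fell, so neither share is above that of all genes. Of the membrane and matrix proteins the chaperonin Hspd1 rose (3.26 ± 1.10). With only the compared groups fitted, 0.353% of all genes were called in this comparison, against 11.1%. Uqcrq of complex III was at 3.47 ± 1.17 and Mrpl39 at 8.91 ± 2.16 there.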

How the data were processed

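RNA was amplified with SMART-Seq v4 and made into libraries with NEBNext Ultra II, per the labels. The authors deposited counts, whole reads per Ensembl gene, and for the first set a table of their own comparisons, per the file headers: it gives log2 values (mean CPM and fold changes), the LR score of each test, and p-values. The submitters' processing notes name FastQC 0.11.7, Trimmomatic 0.38, Bowtie2 2.3.5, STAR 2.7.0d, HTSeq 0.9.1 and edgeR; genome build, annotation and strand setting are not given in the sources used here. Symbols and coordinates came from GENCODE M21 (GRCm38).

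Shares are percentages of gene-assigned reads. Member levels are CPM. edgeR 4.0.16 (TMM, filterByExpr with a minimum count of 10, quasi-likelihood test, Benjamini-Hochberg over all genes at 0.05) was fitted to the 32 tamoxifen libraries with fraction and set (15710 genes tested), to the 24 first-set libraries by group (14771), and by fraction and set for set comparisons (17961). DESeq2 1.42.0 and limma 3.58.1 voom were alternatives. Members and lists were chosen with earlier results of these data known. Every rRNA and mRNA could be named; of tRNAs the 4 most abundant and the 2 largest and 2 lowest called in each comparison; of nuclear lists the 2 largest and 2 lowest called with a mean log2 CPM of at least 4. tRNAs with 0 reads, mt-Ta, mt-Ti in PeMP_TRAP minus MG_TRAP, and those named for their bounds were named after their values were seen. Results of 1 gene of the membrane and matrix list are not reported here.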

Additional observations from a re-analysis of the deposited data

Results flagged for a closer look

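The ratio of mt-Rnr2 to mt-Rnr1 in tamoxifen MG_TRAP replicate D was 7.459, apart from the 1.48 to 4.16 of the other 7 libraries of that group. This library also had the lowest mitochondrial share, 0.0712%. Without letter D the log2 difference of the ratio was -1.34 between MG_TRAP and Input and -0.47 between PeMP_TRAP and MG_TRAP. tRNA made up 0.7807% of the members' reads in tamoxifen PeMP_TRAP replicate E, apart from 0.22% to 0.399% in the other 7. Both stood out by Dixon's test among 40 such tests, of which chance alone flags about 1 in 20.

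The enrichment of PeMP_TRAP over SN_input and that of MG_TRAP over Input differed, by edgeR's test of the difference itself, for mt-Nd2 (2.328, adjusted p = 0.0116), mt-Tn (4.824, adjusted p = 0.0235, with 0 to 3 reads in MG_TRAP), mt-Tc (4.143, adjusted p = 0.0311), mt-Nd4 (2.576, adjusted p = 0.00767) and mt-Cytb (2.42, adjusted p = 0.00677). limma voom and the first set alone called none of them. The enrichment of PeMP_TRAP over SN_input differed between the sets for mt-Tm (-7.586, edgeR adjusted p = 0.0122).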

How the results depend on the processing

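No called member changed direction under any alternative run. In brackets is the percent of all genes called in either direction in the same fit. For MG_TRAP minus Input in tamoxifen mice, 15 members were called with DESeq2 (11.2%) or RLE size factors (7.14%), 13 with no filter (8.16%), 2 with limma voom (11.4%) and 0 in the first set only (2.54%). For PeMP_TRAP minus SN_input it was 4 with DESeq2 (39.6%) or RLE (34.3%), 6 with voom (51.4%), 7 with no filter (22.1%), 5 in the second set only (43.6%) and 0 in the first (2.87%). PeMP_TRAP minus MG_TRAP gave 10 with voom (44.2%) and SN_input minus Input 7 (1.33%), each 0 in the first set only (0% and 0.0463%). The difference of enrichments gave 0 with voom (12.1%), 0 in the first set only (0%), 11 with no filter (6.36%) and 9 with total counts (9.43%). Second minus first set in MG_TRAP gave 4 with voom (12.3%), and tamoxifen minus control in PeMP_TRAP 3 (8.21%). In control mice PeMP_TRAP minus MG_TRAP gave 18 with DESeq2 (13%), 0 with compared groups only (0%), 9 with no filter (0.273%) and 8 with total counts (1.32%). SN_input minus Input gave 1 with DESeq2 (0.907%) or voom (0.00677%) and 4 with no filter (0.0467%), and MG_TRAP minus Input 1 with no filter (0.061%). The first set alone has 3 libraries a group; other causes were not tested.

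Letters were not taken to pair libraries in the main fits. Same-lettered libraries had minimum correlations of deviations of -0.039 to 0.079, but a low minimum cannot decide whether they share a homogenate. Counts of letters above are a description. With letters as blocks, exact permutation adjusted p of tamoxifen share differences was 0.0208 for MG_TRAP minus Input, PeMP_TRAP minus MG_TRAP and SN_input minus Input. For PeMP_TRAP minus SN_input it was 0.25. As a hint from the data, a library correlated best with its own letter in 19 of 24 cases in the first set and 9 of 20 in the second. With a replicate block the members called were 13 for MG_TRAP minus Input (8.87%) and 8 for PeMP_TRAP minus SN_input (31.7%), and in control mice 2 for MG_TRAP minus Input (0.112%), 10 for PeMP_TRAP minus MG_TRAP (0.112%) and 8 for SN_input minus Input (0.161%).

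Leaving out 1 letter gave 6 to 12 for MG_TRAP minus Input, 1 to 6 for PeMP_TRAP minus SN_input, 18 to 20 for PeMP_TRAP minus MG_TRAP, 11 to 17 for SN_input minus Input and 3 to 9 for the difference of enrichments. It gave 4 to 7, 3 to 10, 1 to 8 and 8 to 10 for the sets in Input, MG_TRAP, SN_input and PeMP_TRAP, 0 to 3 for tamoxifen minus control in PeMP_TRAP and 0 to 15 for PeMP_TRAP minus MG_TRAP in control mice (0 without A, B or C).

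The log2 share differences of the first set alone were -3.904 (MG_TRAP minus Input), 3.773 (PeMP_TRAP minus MG_TRAP) and 2.827 (SN_input minus Input), at an exact permutation adjusted p of 0.133 each. PeMP_TRAP minus SN_input turned to 0.02187 in the second set. Tamoxifen minus control turned to -0.174 in SN_input with mRNAs only and ranged from -1.464 to 0.4367 in MG_TRAP with letters left out. In control mice PeMP_TRAP minus SN_input turned to 0.6323 with mRNAs only and 0.3475 without mt-Rnr2.

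Other scalings moved the median of all genes by -1.05 (SN_input minus Input, total counts) to 0.98; called members kept their direction. The split of all genes into higher and lower went from 4.67% and 2.15% to 3.78% and 3.36% with RLE size factors for MG_TRAP minus Input. With total counts it went from 0.0271% and 0.0135% to 0.149% and 1.17% for PeMP_TRAP minus MG_TRAP in control mice, and from 0.768% and 0.663% to 1.25% and 0.228% for the sets in SN_input and from 0.635% and 2.12% to 0.713% and 1.44% in Input.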
